A study of Drosophila melanogaster with 12 samples.

Results

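The comparison described here set fly heads at 100 percent sucrose against fly heads at 25 percent sucrose, the widest difference in dose among sugar-fed flies labelled cabut RNAi. It was chosen by label alone and holds 4 of the 12 RNA-seq libraries of the series, 2 at 100 percent and 2 at 25 percent. All are heads of Drosophila melanogaster in a Canton-S background at 18 h, as labelled, and the percentages are the labels' own. The flies of both groups carried Tim-gal4, a driver that acts in cells that express the clock gene timeless, together with UAS-cbt RNAi, a transgene that makes double-stranded RNA against cabut (cbt). The other cells of the head are not targeted by that driver. For setting beside them there were 2 libraries of the same genotype at 50 percent and 2 without sucrose, and 1 control library at each concentration, from flies with the UAS-cbt RNAi transgene but without the driver. The labels do not state whether the libraries of 1 group come from separate sets of flies, and p-values therefore cover the spread among libraries, technical or not.

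Dietary sugar is sensed in fly tissues by the transcription factors Mondo and bigmax, which switch on sugarbabe (sug), cabut and enzymes that turn sugar into fat. Cabut is a zinc-finger repressor that lowers Pepck1 and other genes of glucose production. In the head the fat body, a thin layer of cells around the brain, is the main site of lipid synthesis and storage.

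The measure was the normalized read, meaning reads assigned to a transcript and scaled, with values that are whole multiples of 1 step in each library. Poly(A) selection after fragmentation places the reads toward 3′ ends. Recovered reads per library came to 1116380 and 1415449 at 100 percent, against 1859219 and 1093307 at 25 percent. Of 13745 genes in the table, the 6550 with a mean of at least 10 normalized reads over the 12 libraries were tested with limma on log2(value + 1), so that a log2 difference understates the change of low genes. Errors on log2 differences are standard errors (SE). The median absolute log2 difference between replicates was 0.219 at 100 percent and 0.237 at 25 percent, and the pairs across concentrations lay between 0.203 and 0.266. Defining genes of the eye marked the libraries as heads: summed photoreceptor markers were 45442 and 50400 at 100 percent, against 48121 and 47333 at 25 percent, while none of 13 gut and salivary gland markers reached the minimum. The targeted gene did not separate the labels by a lower level: cbt had 102 to 202 normalized reads over the 8 cabut RNAi libraries, and 93.5 to 139 in the 4 controls. These libraries are therefore called the libraries labelled cabut RNAi, and every direction given for them rests on that label. How the counted 3′ reads lie relative to the transgene's target was not examined.

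Few genes were called between heads at 100 percent and heads at 25 percent sucrose. With 2 libraries a group, few calls do not show that the heads were alike. By limma with Benjamini-Hochberg adjustment, 1 gene, CG3348, was higher at 100 percent at an adjusted p under 0.05 and 0 genes were lower, which is 0.0153 percent of genes tested. At an unadjusted p under 0.05 there were 141 genes higher (2.15 percent) and 218 lower (3.33 percent), in all 5.48 percent of genes, close to the share that this threshold allows with no difference. The edgeR quasi-likelihood test on recovered reads also called 1 higher and 0 lower, and DESeq2 called 3 higher and 2 lower. Both libraries at 100 percent lay above both at 25 percent for 1110 genes (16.9 percent) and below both for 1206 genes (18.4 percent). Log2 differences had a median of -0.01, with the 5th percentile at -0.50 and the 95th at 0.46. Their median SE was 0.25, or 0.16 among the 2330 genes averaging at least 50 normalized reads. With 2 libraries against 2, an exact two-sided permutation test of a single gene cannot give a p below 0.333, so every p here borrows its spread from the fit across genes.

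**Figure D1:**
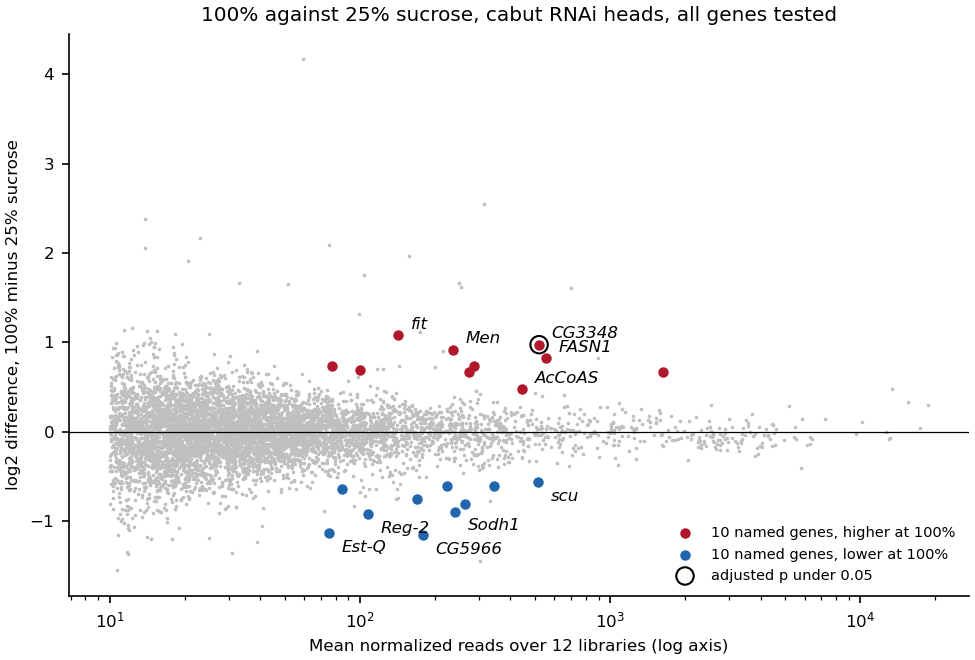
Log2 difference, 100 minus 25 percent sucrose, against mean normalized reads (log axis) for 6550 genes in the libraries labelled cabut RNAi. Each point is 1 gene; red and blue points are the 10 named genes of each direction, and the circle marks CG3348 at 0.98, the gene with an adjusted p under 0.05.

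CG3348 lies on chromosome arm 3R, where its transcript row spans bases 23117253 to 23117911 in build dm3. It had 1148 and 1420.3 normalized reads at 100 percent sucrose, against 630.0 and 668 at 25 percent. The groups did not overlap, and the libraries at 50 percent, with 941 and 876, lay between them. The means were 1284 ± 193 at 100 percent and 649 ± 27.0 at 25 percent (SD, n = 2 each). CG3348 rose by 0.98 ± 0.12 on the log2 scale, a 1.97-fold difference (limma with Benjamini-Hochberg adjustment, adjusted p = 0.027). The controls had far lower levels, 35.8 normalized reads at 100 percent and 27.7 at 25 percent. With 4.96 at 50 percent and 2.56 without sucrose, these single control libraries had no steady order by dose. The log2 difference in the libraries labelled cabut RNAi exceeded that in the controls by 0.62 ± 0.24, which did not pass the threshold (limma, Benjamini-Hochberg adjusted p = 0.35). CG3348 overlaps Hemomucin (Hmu), a mucin-like surface protein gene, in dm3, and because the use of strand is not given in the sources used here, reads of the pair cannot be told apart. When each of the 8 libraries was left out in turn, CG3348 stayed past the threshold in 1 fit, without replicate 1 at 100 percent (limma, Benjamini-Hochberg adjusted p = 0.0334), and the adjusted p of CG3348 reached 0.203 in the others.

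The next genes on the higher side by p included enzymes that turn sugar into fat, and none of these passed the adjusted threshold. FASN1, fatty acid synthase, had 685 and 788 normalized reads at 100 percent, against 439 and 392 at 25 percent. Its groups did not overlap, the libraries at 50 percent held 559 and 688, and the log2 difference was 0.82 ± 0.13 (limma, Benjamini-Hochberg adjusted p = 0.106). Men, the malic enzyme that supplies NADPH for lipid synthesis, had 406 and 409 normalized reads at 100 percent, against 189 and 244 at 25 percent. The replicates at 100 percent were closer together than those at 25 percent, and the log2 difference was 0.92 ± 0.15 (limma, Benjamini-Hochberg adjusted p = 0.106). AcCoAS, which makes acetyl-CoA from acetate, had 653 and 659 at 100 percent, against 457 and 484 at 25 percent, a log2 difference of 0.48 ± 0.10 (limma, Benjamini-Hochberg adjusted p = 0.422). Both replicate pairs were tight, and the groups stood well apart. For the storage side, Lsd-1, the lipid droplet protein perilipin 1, had 463 and 501 at 100 percent and 275 and 304 at 25 percent. Its log2 difference was 0.74 ± 0.18, and the gene overlaps CG10214 in dm3, whose values of 439 and 463 at 100 percent and 273 and 292 at 25 percent run close to it, so the reads of the pair may be shared. Agpat2, an acyltransferase of phospholipid and triglyceride synthesis, had 41.2 and 37.0 at 100 percent and 21.0 and 20.7 at 25 percent. Its log2 difference was 0.88 ± 0.23 (limma, Benjamini-Hochberg adjusted p = 0.703). Unlike the other genes of this paragraph, Agpat2 was not named by rule.

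Over the whole list for fatty acid synthesis, 14 of 20 genes were tested and 0 passed the adjusted threshold. At an unadjusted p under 0.05 there were 4, all higher (FASN1, AcCoAS, Lsd-1 and Agpat2), beside 2.15 percent of all genes on the higher side. Of the 14, 8 had a positive log2 difference and 6 a negative one. Among the 6 was mdy at -0.64, with both libraries at 100 percent below both at 25 percent. The list's median log2 difference was 0.03, against -0.01 for all genes tested. ACC, acetyl-CoA carboxylase, had 173 and 216 normalized reads at 100 percent and 207 and 200.8 at 25 percent, and Desat1, the main fatty acid desaturase, had 3011 and 3093 at 100 percent and 3104 and 2793 at 25 percent. Neither separated the concentrations. SREBP, the transcription factor of lipid synthesis, had 120.0 and 153 at 100 percent and 149 and 121 at 25 percent, with groups that overlapped. The pentose phosphate pathway, another cytosolic source of NADPH, had a median of 0.21 over 7 tested genes with 0 called. Of these, 2 were higher at an unadjusted p under 0.05, beside 2.15 percent of all genes. Those were Zw, glucose-6-phosphate dehydrogenase, with 115 and 110.2 at 100 percent against 90.9 and 77.0 at 25 percent, and Pgd, phosphogluconate dehydrogenase, with 151 and 131 at 100 percent against 112 and 109 at 25 percent. In both genes the libraries at 100 percent lay above those at 25 percent.

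**Figure D2:**
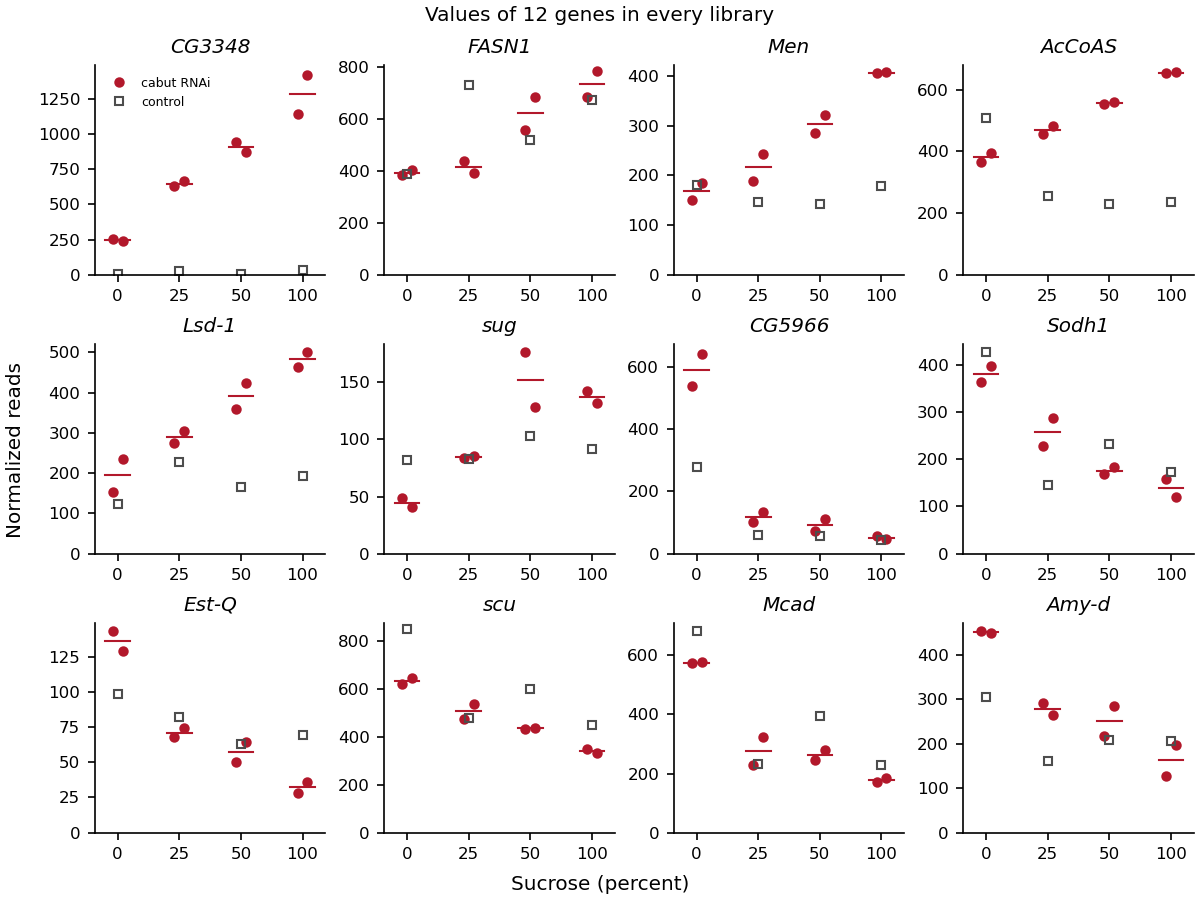
Normalized reads of 12 genes in every library, by sucrose concentration in percent; red circles are libraries labelled cabut RNAi with a line at their mean (n = 2), and open squares are the single control libraries. Both red circles at 100 percent lie above both at 25 percent for FASN1, Men, AcCoAS and Lsd-1, and below both for CG5966, Sodh1, Est-Q and scu.

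Genes of sugar sensing gave a mixed picture. Sug, the sugar-induced transcription factor sugarbabe, had 143 and 132 normalized reads at 100 percent and 83.9 and 85.4 at 25 percent. The groups did not overlap, but of the libraries at 50 percent 1 was above both at 100 percent, at 177, and 1 was below both, at 128. The log2 difference of sug was 0.69 ± 0.17 (limma, Benjamini-Hochberg adjusted p = 0.65). For cbt itself the values were 186 and 202 at 100 percent and 162 and 126 at 25 percent, a log2 difference of 0.44 ± 0.17 (limma, Benjamini-Hochberg adjusted p = 0.905). Pepck1, the cytosolic phosphoenolpyruvate carboxykinase, had 1004 and 797 at 100 percent and 990.4 and 1213 at 25 percent, so that its groups overlapped. Pepck2, its paralog, was at 8.76 and 6.98 at 100 percent and 15.5 and 14.1 at 25 percent, a log2 difference of -0.84 ± 0.29. Mondo and bigmax each overlapped between concentrations, with log2 differences of 0.03 and -0.05. Of the list's 10 tested genes 0 were called, and the median was 0.24. Glycolysis and gluconeogenesis (16 tested, median 0.02) and storage sugars, glycogen and trehalose (8 tested, median 0.03), likewise held 0 called genes.

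On the lower side stood enzymes that break down fat, sugar alcohols and starch, and again none passed the adjusted threshold. CG5966, which encodes a predicted lipase, had 56.9 and 46.7 normalized reads at 100 percent, against 101 and 133 at 25 percent. Its groups did not overlap, and its log2 difference was -1.16 ± 0.20 (limma, Benjamini-Hochberg adjusted p = 0.119). Scu, the mitochondrial enzyme scully that oxidizes hydroxyacyl-CoA and steroid substrates, had 350.4 and 332 at 100 percent, against 473 and 539 at 25 percent, a log2 difference of -0.56 ± 0.11 (limma, Benjamini-Hochberg adjusted p = 0.238). Mcad, medium-chain acyl-CoA dehydrogenase, had 171 and 186 at 100 percent and 228 and 324 at 25 percent, a log2 difference of -0.60 ± 0.15. The replicates of Mcad at 25 percent lay far apart, yet both were above the libraries at 100 percent. Over the list for lipolysis and fatty acid oxidation 19 of 20 genes were tested and 0 were called. At an unadjusted p under 0.05 there were 3, all lower (CG5966, Mcad and Echs1, an enoyl-CoA hydratase), beside 3.33 percent of all genes on the lower side. In 10 of the 19 both libraries at 100 percent lay below both at 25 percent, against 18.4 percent of all genes, and the median log2 difference was -0.22. That median was -0.25 without the first library at 100 percent and -0.14 without the second. In the controls it was -0.05 (1 library against 1). This list, like the others, was chosen with earlier results of these data known, so its counts are a description. The triglyceride lipase brummer (bmm), at 64.0 and 50.9 at 100 percent and 61.4 and 65.7 at 25 percent, overlapped between concentrations.

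Sodh1, sorbitol dehydrogenase, which converts sorbitol to fructose, had 159 and 120.0 normalized reads at 100 percent, against 228 and 288 at 25 percent. The groups did not overlap, and the log2 difference was -0.89 ± 0.16 (limma, Benjamini-Hochberg adjusted p = 0.119). The list of polyol dehydrogenases and aldose reductases had a median of -0.05 over 7 genes, and Akr1B, an aldo-keto reductase, had 605 and 571 at 100 percent and 549 and 676 at 25 percent. Of the starch and disaccharide enzymes, all 7 tested glucosidases and amylases had a negative log2 difference, 4 with an unadjusted p under 0.05, beside 3.33 percent of all genes on the lower side, and 6 had both libraries at 100 percent below both at 25 percent, beside 18.4 percent. Their median was -0.44, and 0 were called. These counts include tobi, which had 5.26 and 4.88 at 100 percent and 5.49 and 9.39 at 25 percent. It was at 80.6 in the control at 100 percent and at most 9.80 in any other library. It was therefore tested only through that control, and its calls and counts give no support. Its own log2 difference, -0.44 ± 0.78, is the list median. Amy-d, the distal amylase, had 127 and 198 at 100 percent and 291 and 266 at 25 percent, a log2 difference of -0.81 ± 0.19 (limma, Benjamini-Hochberg adjusted p = 0.582). Its near-identical neighbour Amy-p, at 73.6 and 48.1 at 100 percent and 96.8 and 104 at 25 percent, may share reads with it, so the pair may not be 2 separate measurements. Mal-A5 and Mal-B2, both maltases, had log2 differences of -0.39 and -0.41. In the controls the median of these 7 genes was 0.18 (1 library against 1). That median includes tobi, which was high only in the control at 100 percent. Of the others, Amy-p (0.94), Amy-d (0.35) and Mal-B2 (0.18) were positive in the controls. Mal-A5 (-0.27), Mal-A1 (-0.62) and Amyrel (-0.64) were negative there, so the control median is not read as a direction.

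Amino acid breakdown held Sardh, sarcosine dehydrogenase, with 14.0 and 18.1 normalized reads at 100 percent and 33.4 and 45.0 at 25 percent. The groups of Sardh did not overlap, and its log2 difference was -1.23 ± 0.25 (limma, Benjamini-Hochberg adjusted p = 0.238). Ass, argininosuccinate synthase, was at 5.26 and 11.2 at 100 percent and 21.5 and 16.9 at 25 percent. Of 22 tested genes 0 were called, 4 were lower and 1, Gdh, was higher at an unadjusted p under 0.05. The shares over all genes were 3.33 percent lower and 2.15 percent higher. Gdh, glutamate dehydrogenase, had 1021 and 1002 at 100 percent and 872 and 817 at 25 percent. The list's median was -0.12.

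Other genes named at the ends of the comparison, which likewise missed the adjusted threshold, had separate groups. On the higher side were fit, a female-biased fat body peptide that curbs feeding (265 and 231 at 100 percent, 112 and 120.1 at 25 percent), and Cht6, a chitinase (2435 and 1708 at 100 percent, 1117 and 1468 at 25 percent). The Cht6 values are those of 1 of its 3 distinct rows, CG15313-RA, which spans bases 9943758 to 9944448 of chromosome X in dm3. Phyhd1, a predicted phytanoyl-CoA dioxygenase, had 149.8 and 105 at 100 percent and 65.9 and 85.4 at 25 percent. On the lower side Est-Q, a carboxylesterase, had 28.0 and 36.3 at 100 percent and 67.9 and 74.1 at 25 percent, a log2 difference of -1.13 ± 0.19 (limma, Benjamini-Hochberg adjusted p = 0.109). LManII, a lysosomal alpha-mannosidase, had 131 and 144 at 100 percent and 208 and 210.2 at 25 percent. Cyp28d1, a cytochrome P450, had 82.3 and 126 at 100 percent and 172 and 171 at 25 percent. Reg-2, the rhythmically expressed gene 2, had 46.4 and 46.0 at 100 percent and 75.4 and 103 at 25 percent. Taf10b, a subunit of the basal transcription factor TFIID, had 56.9 and 69.1 at 100 percent and 96.3 and 99.5 at 25 percent, and it overlaps Taf10 in dm3.

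Most other gene groups stayed near the background. Of 38 lists, 37 had a tested member, and 33 of these had a median log2 difference within 0.25 of 0. The 4 outside were the fat body markers (0.57), the sex-biased genes (0.40), the Turandot and JAK/STAT stress genes (-0.29) and the glucosidases and amylases (-0.44). The first pair of lists shares Yp1, Yp2, Yp3 and fit, so they are not separate groups. The fat body median is the value of 1 gene, to, at 0.57 ± 0.71. It had 69.2 and 223 at 100 percent and 39.4 and 176 at 25 percent, so its groups overlapped. Which lists lay outside depends on single libraries at 100 percent. Without the second, the Turandot median was -0.15. Those of the antimicrobial and immune genes, the pentose phosphate pathway and cuticle proteins were then 0.41, 0.26 and 0.28. Without the first, the heat shock and lipolysis medians were -0.26 and -0.25, and that of sugar sensing and cabut was 0.255. Turandot genes encode secreted stress peptides, and TotC had 15.8 and 18.1 at 100 percent and 46.9 and 48.8 at 25 percent, while the libraries at 50 percent, at 59.5 and 152, were above both. Of the cytosolic ribosomal proteins 70 of 85 had a negative log2 difference, beside 3345 of 6550 genes tested, with a median of -0.08 and 0 called. That median was -0.0049 without the first library at 100 percent and -0.15 without the second. Mitochondrial ribosomal proteins had a median of -0.12, with 54 of 71 negative. All 13 mitochondrially encoded genes had a positive log2 difference, beside 3202 of 6550 genes tested, and 6 had both libraries at 100 percent above both at 25 percent, beside 16.9 percent of all genes. Their median was 0.15, or 0.22 without the first library at 100 percent and 0.07 without the second, and 0 were called. Together they held 3.26 and 3.53 percent of normalized reads at 100 percent sucrose, against 3.14 and 3.08 percent at 25 percent. They may move together with that share, so they are not read as 13 separate measurements. The 68 nuclear-encoded genes of oxidative phosphorylation had a median of -0.01. FOXO and TOR nutrient signalling had a median of 0.04 over 22 genes. Thor, the translation repressor 4E-BP, had 574 and 513 at 100 percent and 491 and 489.9 at 25 percent. The clock genes (15 tested, median -0.03), heat shock genes (9, median -0.01), unfolded protein response (17, median 0.09), osmotic and desiccation stress (18, median -0.09), and insulin-like and feeding peptides (17, median -0.07) each had 0 called genes.

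**Figure D3:**
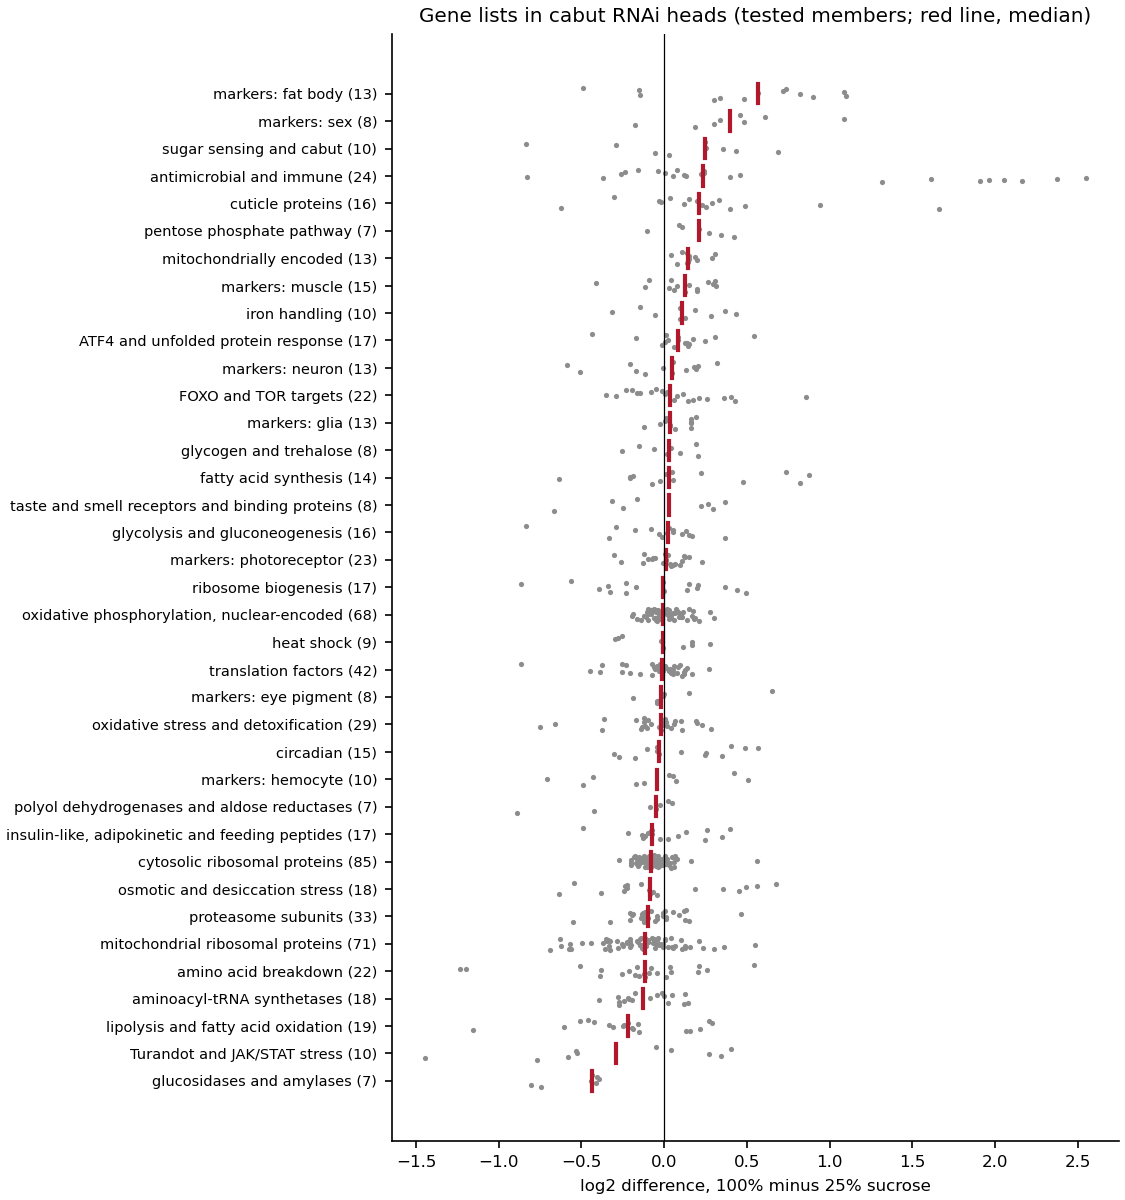
Log2 difference, 100 minus 25 percent sucrose, for the tested members of 37 gene lists in the libraries labelled cabut RNAi; points are genes, red lines are list medians and the number of tested genes is in brackets. Glucosidases and amylases lie lowest with a median of -0.44, fat body markers highest with 0.57, and the antimicrobial genes spread to the right.

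Cell markers moved between replicates as well as between concentrations. Summed fat body markers were 61315 and 52873 at 100 percent, against 36472 and 54405 at 25 percent, so the groups overlapped through the second library at 25 percent. The yolk protein genes Yp1, Yp2 and Yp3, female-specific products of the fat body, make up most of that sum, and the list also holds FASN1, Lsd-1 and fit, named above. Of its 13 tested genes 4 had an unadjusted p under 0.05 and were higher, and 1 (Hml, a hemocyte gene) was lower. Over all genes the shares were 2.15 percent higher and 3.33 percent lower. The larval serum protein gene Lsp2 had 323 and 242 at 100 percent and 65.4 and 339.7 at 25 percent, the pair at 25 percent being further apart than the concentrations. Summed muscle markers were 3675 and 3928 at 100 percent and 2789 and 4381 at 25 percent. Acp1, an adult cuticle protein gene, had 421 and 286 at 100 percent and 8.49 and 1273 at 25 percent, so 1 library at 25 percent was lowest and the other highest of the 4. The part of these replicate differences in the results for FASN1, Lsd-1 and fit was not tested, and both libraries at 25 percent were below both at 100 percent for each of those 3 genes. Bulk heads cannot tell fewer cells of a type from less RNA per cell.

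Immune genes set 1 library apart. These genes were chosen after their values were seen, and the first library at 100 percent held high levels of peptides that kill bacteria and fungi while the second did not. Diptericin B (DptB) had 692 and 6.98 normalized reads at 100 percent and 33.9 and 24.4 at 25 percent. Attacin C (AttC) had 851 and 31.4 at 100 percent and 53.9 and 31.9 at 25 percent. Metchnikowin (Mtk), an antifungal peptide gene, had 1657 and 60.7 at 100 percent and 150.3 and 71.3 at 25 percent. In each case the first library at 100 percent was far above the other 3 of the comparison, and the second lay below both at 25 percent. Mtk was not high in that library alone: the second library at 50 percent had 526 and the 4 controls had 1016 to 1605. Cecropin A1 (CecA1) had 131 and 0.698 at 100 percent and 3.49 and 1.88 at 25 percent. Drosomycin (Drs), an antifungal peptide gene of the Toll pathway, had 1161 and 38.4 at 100 percent and 27.5 and 46.0 at 25 percent, but it was also at 1287 in the second library at 50 percent and 47.2 in the first. In the controls Drs was at 615 at 100 percent and at 37.2 to 52.9 at the other concentrations.

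Only 7 of 6550 genes were more than 5 times as high in the first library at 100 percent as in any of the other 7 libraries labelled cabut RNAi, and they were AttA, AttB, AttC, CecA1, CecA2, DptB and IM18, of which 6 were among the 24 immune genes tested. Of the 7, AttA, AttB, CecA1 and CecA2 averaged under 10 normalized reads over the other 11 libraries and entered the test only through that library, so the counts support no test. AttA and AttB, and CecA1 and CecA2, are near-identical pairs whose reads may be shared. The bomanin peptide genes, Toll targets, were less uneven. BomS1 had 689 and 374 at 100 percent and 368 and 403 at 25 percent, and BomBc1 had 400.3 and 211 at 100 percent and 202 and 221 at 25 percent, with the second library at 50 percent higher still at 893 and 635. BomS2 and BomS3 overlapped between concentrations, as did the transcription factor Relish (Rel) that drives many antimicrobial genes, Rel being at 98.1 and 94.9 at 100 percent and 90.4 and 102 at 25 percent. Of the 24 genes 0 were called, and the list's median log2 difference of 0.23 became -0.21 without the first library at 100 percent. Without the second library at 100 percent instead, limma with Benjamini-Hochberg adjustment called 5 genes higher, all antimicrobial, and 3 lower. That fit keeps only the library already described as high, takes its spread from the other groups and gives no separate support.

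**Figure D4:**
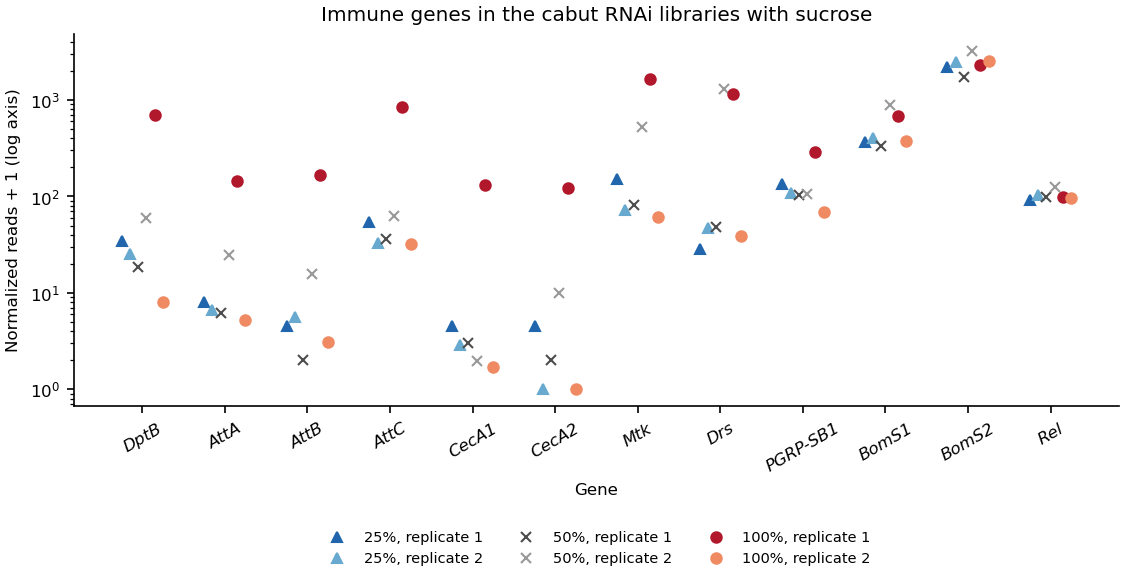
Normalized reads + 1 (log axis) of 12 immune genes in the 6 libraries labelled cabut RNAi with sucrose, 1 point per library. The first library at 100 percent lies far above the rest for DptB, the attacins and the cecropins, while for BomS2 and Rel the libraries at 100 percent lie within the range of the others.

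The 50 percent libraries were set between the ends of the comparison. Over all genes, the mean at 50 percent lay between those at 25 and 100 percent for 2053 (31.3 percent). Among the 20 genes named at the ends it did so for 18, the exceptions being sug, above both, and Cht6, below both. Those genes were picked for their separate ends, which leaves room for a middle mean, so the count is a description and is not read against the share over all genes. A straight line over log2 concentration from 25 to 100 percent has a slope fixed by the end libraries, with 2 libraries at each equal step. The 50 percent libraries change only its spread, so it restates the comparison and is no separate support for a dose response. By limma it called 1 gene, again CG3348 (0.0153 percent of genes tested). CG3348 rose by 0.49 ± 0.06 on the log2 scale for each doubling of sucrose (limma, Benjamini-Hochberg adjusted p = 0.00978). At an unadjusted p under 0.05 the trend had 343 genes.

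The controls gave the only 100 against 25 percent values that share no library with the comparison, 1 library against 1 and without a test of their own. Among the 10 named higher genes the median log2 difference was 0.74 with the cabut RNAi label and -0.12 in the controls, where 4 of 10 were positive. Among the 10 named lower genes it was -0.78 with the cabut RNAi label and 0.03 in the controls, where 5 of 10 were negative. All 20 were picked by p in the libraries labelled cabut RNAi, so their differences there are large by choice. The control values were not picked in that way, so the gap between these medians is not read as a difference between labels. FASN1 was at 674 in the control at 100 percent and 733 in the control at 25 percent, and Sodh1 at 172 and 145 in the same order. The control values of these genes matched the direction of the libraries labelled cabut RNAi in 9 of 20, but the difference between labels passed the adjusted threshold for none of the 20. Its lowest adjusted p was 0.0992, for Taf10b (limma with Benjamini-Hochberg adjustment), which was at 132 in the control at 100 percent and 71.3 in the control at 25 percent.

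**Figure D5:**
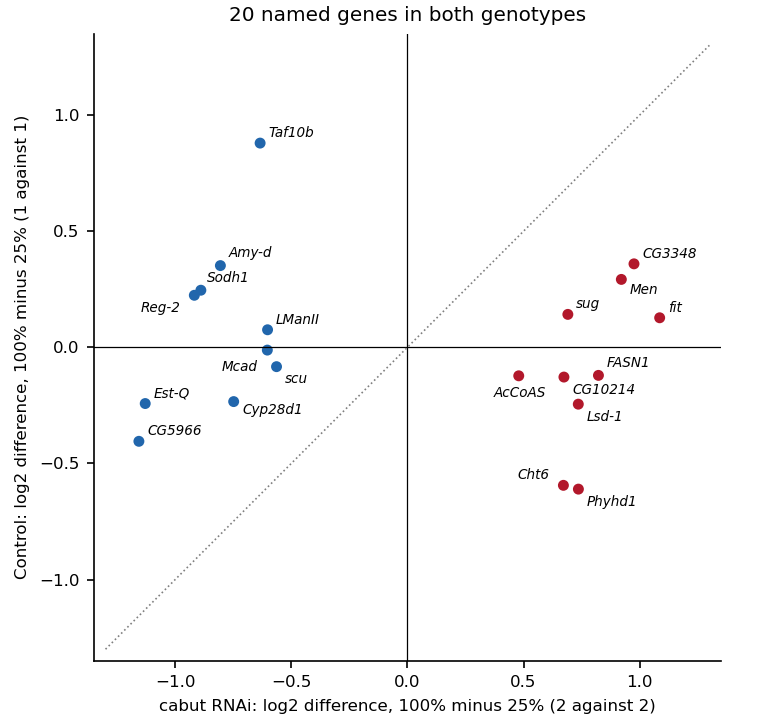
Log2 difference, 100 minus 25 percent sucrose, of the 20 named genes in libraries with the cabut RNAi label (horizontal, 2 against 2) and in the controls (vertical, 1 against 1); the dotted line marks equal differences. Red genes, with a median of 0.74 on the horizontal axis, have a control median of -0.12, and blue genes, with a median of -0.78, a control median of 0.03. The genes were picked by p on the horizontal axis, so the medians there are large by choice.

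Tested over all genes, the 100 against 25 percent difference itself differed between labels for 9 genes (0.137 percent, limma with Benjamini-Hochberg adjustment), all in the negative direction, and 758 had an unadjusted p under 0.05. Of the 9, 8 had a mean under 10 in the other 11 libraries and so were tested only because of the control library at 100 percent, and their calls are no support for a difference in response. CG34324 is the plainest case, with 206 reads in that library and 0 in all 11 others, at least 183-fold higher there than 3 reads in the control at 25 percent. Muc68D, a mucin gene, and CG3906 had 73 and 58 reads in that library and 0 in the others, at least 64.9-fold and 51.6-fold higher on the same floor. CG34220 had 551 reads and CG14645 658 reads there, against 1 and 3 reads in the control at 25 percent. The same library had 80.6 summed normalized reads of the 13 gut and salivary gland markers, against 5.87 in the control at 25 percent, and was the shallowest of the series at 511473 reads. The part of these in the 9 calls was not tested. CG34227, chosen after its values were seen, was the exception, with 1532 and 1706 normalized reads at 100 percent and 1503 and 1532 at 25 percent in libraries labelled cabut RNAi, and 1193 at 100 percent and 346 at 25 percent in the controls.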

How the data were processed

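Per the labels' protocols, RNA of fly heads was fragmented before poly(A) selection. The submitters' processing notes name Bowtie, TopHat and build dm3. How reads were counted, whether strand was used and how values were scaled is not given in the sources used here. The authors deposited a signal, normalized reads for 21081 transcript rows in 12 libraries. All values (100 percent, tolerance 0.01) were whole multiples of a library's smallest step, so whole reads were recovered by division. 2 rows with placeholder identifiers were dropped. Rows were joined to genes by CG or CR number, of which 13634 of 14009 matched a RefSeq symbol, and a gene was represented by its row with the highest mean.

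Testing used limma 3.58.1 (intensity trend, R 4.3.3) on log2(value + 1) over the 8 libraries labelled cabut RNAi with a mean per concentration, which leaves 4 residual degrees of freedom, Benjamini-Hochberg adjustment over 6550 genes and a threshold of 0.05. The difference between labels used 8 group means over 12 libraries, which assumes that single controls vary like the replicated groups. On recovered reads edgeR 4.0.16 called 1 gene and DESeq2 1.42.0 called 5. Named genes were cbt, called genes and, up to 10 per direction, those with the smallest unadjusted p and a mean of at least 50; the member of each list with the smallest p; and for the dose trend and the difference between labels the largest 5 per direction among calls. Members and the 38 lists were chosen with earlier results of these data known. The test was tried on simulated reads. No chi-square between replicates was near counting noise (3.86 per degree of freedom at 100 percent, 6.23 at 25 percent), so none was treated as a repeat. Printed coordinates count from 1.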

Additional observations from a re-analysis of the deposited data

Results flagged for a closer look

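For 9 genes the 100 against 25 percent difference in libraries labelled cabut RNAi differed from that in the controls, by a test of the difference itself in limma with Benjamini-Hochberg adjustment. The adjusted p was 1.22e-06 for CG34324, 4.27e-06 for Muc68D, 4.62e-06 for CG3906, 5.22e-05 for CG34220, 0.000136 for dhd, 0.0004 for CG14645, 0.00219 for CG18628, 0.00359 for CG34227 and 0.0366 for IntS14. In the control library at 100 percent dhd, a thioredoxin gene of the female germ line, had 63 reads, CG18628 had 153 reads and IntS14, an Integrator subunit gene, had 13 reads. In the control library at 25 percent these 3 genes had 0, 4 and 3 reads. dhd, CG18628, CG34227 and IntS14 were singled out after their values were seen, and every control value rests on 1 library.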

How the results depend on the processing

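The comparison was recomputed under 25 alternatives. The count of 1 gene higher and 0 lower at the adjusted threshold became 12 higher and 4 lower with no filter on low values, 3 higher and 2 lower with quantile normalization, with DESeq2 and with a filter on the 8 libraries labelled cabut RNAi (chosen after seeing the data), 3 higher and 4 lower with robust estimation, and 0 higher without the intensity trend and in fits of 4, 6 or 12 libraries. Leaving out 1 library gave 0 to 5 higher and 0 to 3 lower. At an unadjusted p under 0.05 there were 316 higher and 344 lower with no filter, 54 and 97 at a minimum mean of 50, and 38 and 71 with DESeq2. Leaving out 1 library gave 76 to 216 higher and 80 to 273 lower. CG3348 was past the threshold in 13 of 25 alternatives, FASN1 and Men in 5, CG5966 in 4 and Sodh1 in 3, and none of these changed direction. The replicate block gave 3 higher (CG3348, FASN1 and Men) and 0 lower. Deviations of same-numbered libraries correlated at 0.27 (0 and 25 percent), 0.28 (0 and 50), 0.33 (25 and 50), 0.0006 (0 and 100), 0.02 (25 and 100) and -0.35 (50 and 100), and as 3 of the 6 were under 0.1 the numbers were not taken as pairs.

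The dose trend called 3 rising and 2 falling with quantile normalization, 2 rising with the replicate block and with edgeR, and 0 to 2 rising and 0 to 1 falling with 1 library left out. The difference between labels called 1 gene lower at a minimum mean of 50, 1 higher with quantile normalization, 4 lower with edgeR and 0 to 2 higher with 1 library left out. With 1 library left out, the 100 against 25 percent log2 difference of 3 genes near 0 reads with the cabut RNAi label took either sign: CG34220 from -0.26 to 0.68, CG14645 from -0.16 to 0.84 and CG18628 from -1.28 to 0.0076. The causes were not tested. The precision is limited by 2 libraries a group, with a median SE of 0.25 on the log2 scale.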
